A study of Mus musculus with 18 samples.

Results

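Toll-like receptors (TLRs) are pattern-recognition receptors that bind microbial molecules and start inflammatory gene expression. The genes described here are those of the TLRs other than the engineered TLR7 and TLR9, with RP105, a TLR4-like receptor of B cells, and the proteins these receptors work with. They were taken by symbol as 9 of the 23420 genes listed: Tlr1, Tlr2, Tlr3, Tlr4 and Tlr6, Cd180 (RP105), Ly86 (the RP105 partner known as MD1), Ly96 (the TLR4 partner known as MD2) and Cd14. All 9 passed the filter on low values in every comparison.

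RNA-seq was performed on splenic B cells of MRL/lpr mice, a strain that carries the lpr mutation of Fas and develops lupus-like disease. The cells were enriched by removing cells bearing CD43, CD4, CD8, CD11b, CD11c or Gr-1 and were cultured for 4 h with or without a TLR agonist, with 3 libraries in each of 6 groups. In the first arm the mice were female and lacked Tlr7, and the cells were left unstimulated or given the TLR9 agonist CpG (ODN 1826, 10 µg/ml). The arm held Tlr9+/- controls and Tlr997 mice, in which the endogenous Tlr9 locus encodes TLR9 with the Toll/IL-1 receptor (TIR) signaling domain of TLR7. In the second arm the mice were male and lacked Tlr9, and the cells were left unstimulated or given the TLR7 agonist CL097 at 5 µg/ml. It held Tlr779 mice, in which the Tlr7 locus encodes TLR7 with the TLR9 TIR domain, and the Tlr7WT controls of that arm are not analysed here. The mice were 5 to 7 weeks old by the labels. The sample titles give the first control as Tlr9+/-, whereas the treatment text gives it as Tlr9-/-. The paper's figure legend for these libraries gives Tlr9+/-, and its methods text gives Tlr9-/-. With the TLR9 agonist CpG, 57.8% of tested genes were called in this control, and the name Tlr9+/- is used here. Tlr9 was read at 7.28 to 7.48 log2 CPM in that control without CpG. It was also read at 7.17 to 7.33 in the Tlr9-/- Tlr779 cells, whose chimeric transcript carries the TLR9 TIR coding sequence. The level of Tlr9 mRNA alone thus does not settle the label. The Tlr997 transcript likewise carries the TLR7 TIR coding sequence. Whether reads from these parts were counted as Tlr9 or Tlr7 was not tested. Tlr7 was read at 2.68 to 3.48 log2 CPM in unstimulated Tlr9+/- cells and at 4.81 to 5.19 in unstimulated Tlr997 cells, both Tlr7-/-, and at 6.61 to 7.33 in unstimulated Tlr779 cells.

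Values are log2 CPM (counts scaled to library size), normalised by the authors. A gene was called higher or lower where limma gave an adjusted p under 0.05 over all tested genes and the log2 change exceeded 0.5. The depth of each library is not known from the files. The lowest member value in any library was 0.52 log2 CPM, for Ly96. B cell markers were present throughout, and all 9 listed were measured: Pax5, a transcription factor of B cell identity, lay between 6.73 and 7.43 log2 CPM in the 18 libraries. The summed level of the 9 was 13232 to 17130 CPM in unstimulated libraries and 6706 to 12612 CPM in stimulated ones. Cd74, at 12.16 to 13.13 log2 CPM, was the highest of the 9 in every library and weighs heavily in that sum. Its values in the Tlr779 libraries were identical with and without CL097 for each replicate number. With CpG in Tlr9+/- cells 7 of the 9 were called lower and Pax5 higher (0.54 log2), against 28.2% of all tested genes lower and 29.7% higher. The 14 macrophage or monocyte markers were also measured, with a summed level of 131.5 to 542.4 CPM. Neutrophil markers summed to 25.0 to 191.1 CPM and the 4 of 6 erythroid markers matched to 12.2 to 474.4 CPM. T cell markers summed to 11.9 to 26.7 CPM in unstimulated and 32.1 to 55.7 CPM in stimulated libraries. Among them Il7r was called higher in all 3 comparisons with stimulation (0.70, 1.70 and 1.26 log2). With CL097 it was at 5.40 to 5.42 log2 CPM, and no other T cell marker passed the filter in that arm. With CpG, 3 of the 8 were called higher in Tlr9+/- and 4 in Tlr997 cells, against 29.7% and 29.6% of all tested genes. Dendritic cell markers summed to 30.4 to 43.9 CPM in unstimulated and 71.4 to 99.6 CPM in stimulated libraries. Among these Zbtb46 was called higher in all 3 comparisons with stimulation. The dendritic cell marker Batf3 and the globin genes Hba-a1 and Hba-a2 were under 0 log2 CPM in all libraries. In bulk RNA, fewer cells of a type and less RNA per cell cannot be told apart.

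TLR4 binds lipopolysaccharide (LPS) together with MD2, and CD14 hands LPS to that pair. RP105 has leucine-rich repeats like those of TLR4 but no TIR domain, and it pairs with MD1 on the surface of B cells, where antibody to it drives proliferation. TLR2 pairs with TLR1 or with TLR6 to bind bacterial lipopeptides. TLR3 binds double-stranded RNA in endosomes and uses the adaptor TRIF, whereas the other TLRs named here use MyD88.

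RefSeq start sites on build GRCm38.p6 were available for 6 of the 9 genes. Cd180, Tlr1 and Tlr6 had 2 listed starts each, and Ly86 had 1. The first listed Tlr6 start lies well inside the annotated gene, which spans chr5:64953092-64970942 on the minus strand, and not at its upstream end. The window at the other listed Tlr6 start is not shown. The promoters of 3 genes whose mRNA fell (Cd180, Tlr1 and Tlr6) and of Ly86, whose mRNA moved little, are shown from 250 bases before the first listed start to 50 bases after it. They lie at chr13:102693297-102693596 (plus strand, Cd180), chr5:64933509-64933808 (minus strand, Tlr1), chr5:64959117-64959416 (minus strand, Tlr6) and chr13:37345095-37345394 (plus strand, Ly86). Capitals mark the ETS core GGAAGT, a motif of PU.1 and other ETS factors, and the interferon-stimulated response element (paired GAAA repeats), on either strand.
Cd180: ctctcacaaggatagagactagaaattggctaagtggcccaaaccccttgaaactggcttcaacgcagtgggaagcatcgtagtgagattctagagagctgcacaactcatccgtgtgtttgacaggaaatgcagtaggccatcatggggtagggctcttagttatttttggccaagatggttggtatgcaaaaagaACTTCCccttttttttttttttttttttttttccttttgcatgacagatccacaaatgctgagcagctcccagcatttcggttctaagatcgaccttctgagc
Tlr1: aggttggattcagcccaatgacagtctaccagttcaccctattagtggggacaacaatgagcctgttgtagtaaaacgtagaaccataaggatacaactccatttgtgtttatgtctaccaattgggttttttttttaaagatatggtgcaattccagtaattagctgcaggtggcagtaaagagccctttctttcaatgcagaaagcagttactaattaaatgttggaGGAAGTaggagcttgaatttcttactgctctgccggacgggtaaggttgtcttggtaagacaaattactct
Tlr6: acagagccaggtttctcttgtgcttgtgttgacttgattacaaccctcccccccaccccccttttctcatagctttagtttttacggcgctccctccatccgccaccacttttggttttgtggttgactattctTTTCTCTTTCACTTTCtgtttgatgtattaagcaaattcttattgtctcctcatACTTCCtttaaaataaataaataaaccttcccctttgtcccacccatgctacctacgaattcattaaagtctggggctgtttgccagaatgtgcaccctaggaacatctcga
Ly86: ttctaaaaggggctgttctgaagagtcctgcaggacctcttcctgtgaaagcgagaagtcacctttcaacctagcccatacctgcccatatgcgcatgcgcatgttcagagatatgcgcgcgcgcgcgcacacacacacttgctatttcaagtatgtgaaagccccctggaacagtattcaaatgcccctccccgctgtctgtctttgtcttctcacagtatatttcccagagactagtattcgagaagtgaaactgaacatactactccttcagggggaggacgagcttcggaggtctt

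The ETS core stood 53 to 48 bases before the start in Cd180, 21 to 16 bases before it in Tlr1 and 62 to 57 bases before it in Tlr6, and the Ly86 window held none. Overlapping matches to the interferon-stimulated response element spanned bases 116 to 101 before the first listed Tlr6 start, which lies inside the annotated gene. Of 32851 promoters of this length, 23.8% held the ETS core and 3.44% the interferon element. The ETS core was in 6 of the 9 promoters listed for the 6 genes, and these belonged to 4 genes (Cd180, Tlr1, Tlr2 and Tlr6). The kappaB consensus was in 2 of the 9 promoters, of Tlr2 and Tlr3, against 8.46% of all promoters. The octamer ATGCAAAT was in none of the 9, against 1.74%. These matches are a description of letters and not of binding.

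Per kilobase of exon, the partner Ly86 had the highest level in unstimulated Tlr9+/- cells, followed by Cd180 and Tlr1. The means were 53.6, 33.2 and 29.3 CPM per kb, and the ranges of the 3 genes did not overlap on the log2 scale. Tlr2 (12.2 CPM per kb), Cd14 (11.2) and Tlr6 (7.62) came next, and the range of Cd14 overlapped those of Tlr2 and Tlr6. Tlr4 (3.66), Ly96 (2.44) and Tlr3 (2.07) were lowest, and the ranges of Ly96 and Tlr3 overlapped. The first 3 places were the same in all 3 unstimulated groups. With CpG in Tlr9+/- cells, Cd180 stood at rank 5 with 5.97 CPM per kb, while Ly86 stayed at rank 1 with 58.6 CPM per kb.

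**Figure D1:**
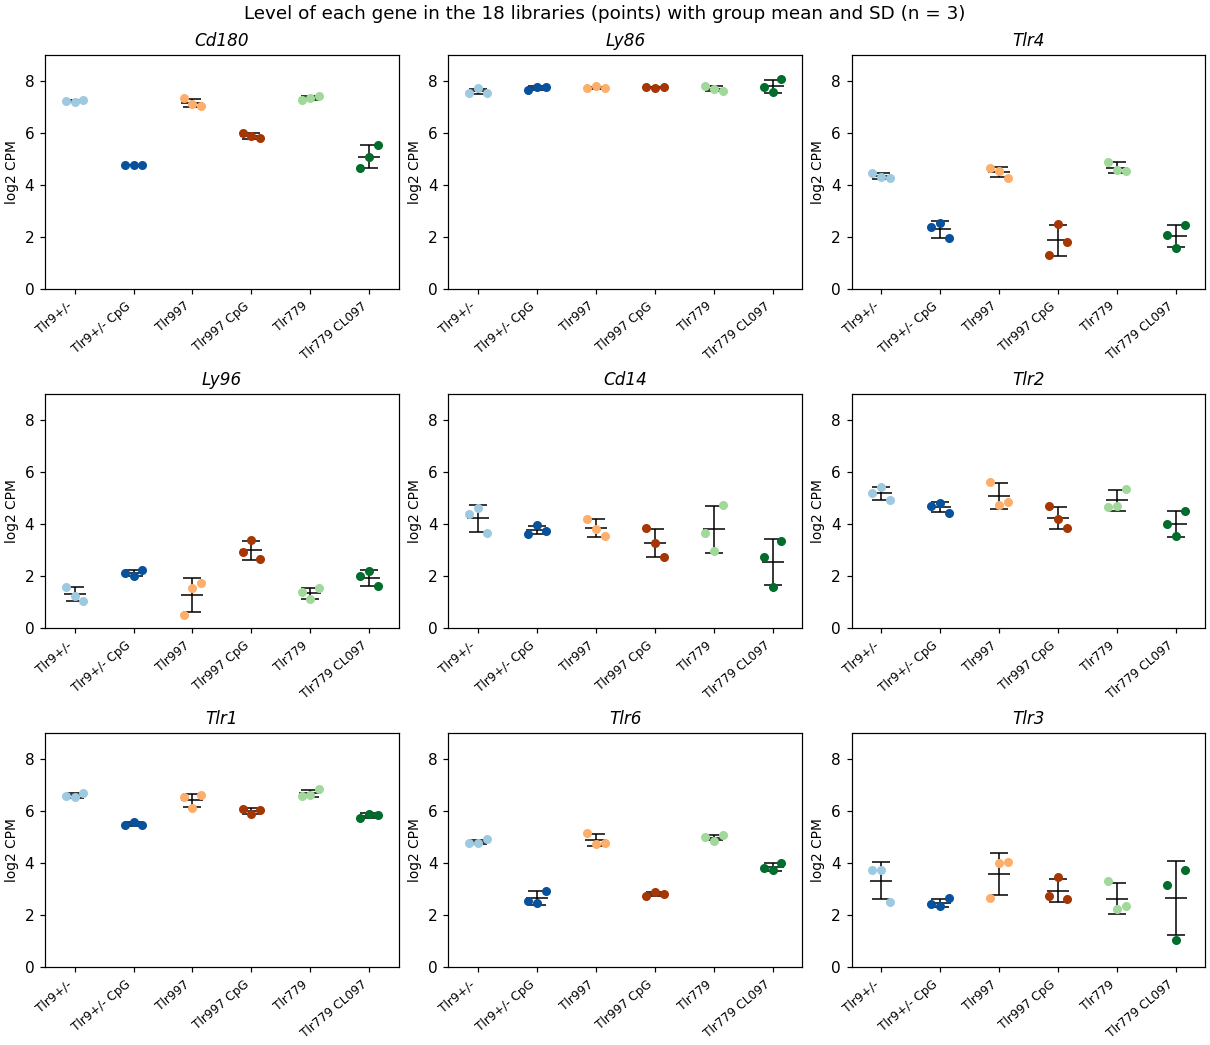
Level of the 9 genes (log2 CPM, y axis) in each of the 18 libraries (points) by group (x axis), with the group mean and SD of 3 libraries. Cd180, Tlr4 and Tlr6 separate stimulated from unstimulated libraries in each genotype, Ly86 stays between 7.53 and 8.07, and Tlr3 and Cd14 spread widely within groups.

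The first comparisons asked how each gene responded to the agonist. With CpG in Tlr9+/- cells, 4 of the 9 genes fell (Cd180, Tlr6, Tlr4 and Tlr1) and 1 rose (Ly96), while 28.2% of the 11494 tested genes were called lower and 29.7% higher. With CpG in Tlr997 cells, 4 fell (Tlr4, Tlr6, Cd180 and Tlr2) and Ly96 rose, against 26.0% of tested genes lower and 29.6% higher. With CL097 in Tlr779 cells, 5 fell (Tlr4, Cd180, Tlr6, Tlr2 and Tlr1) and none rose, against 23.6% of 11082 tested genes lower and 22.7% higher. The median log2 change of the 9 genes was -0.85, -0.63 and -0.91 in the 3 comparisons, and that of all tested genes was 0.04, 0.07 and -0.02. The Tlr779 comparison differs from the others in receptor, sex and agonist, and its response was not tested against theirs.

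**Figure D2:**
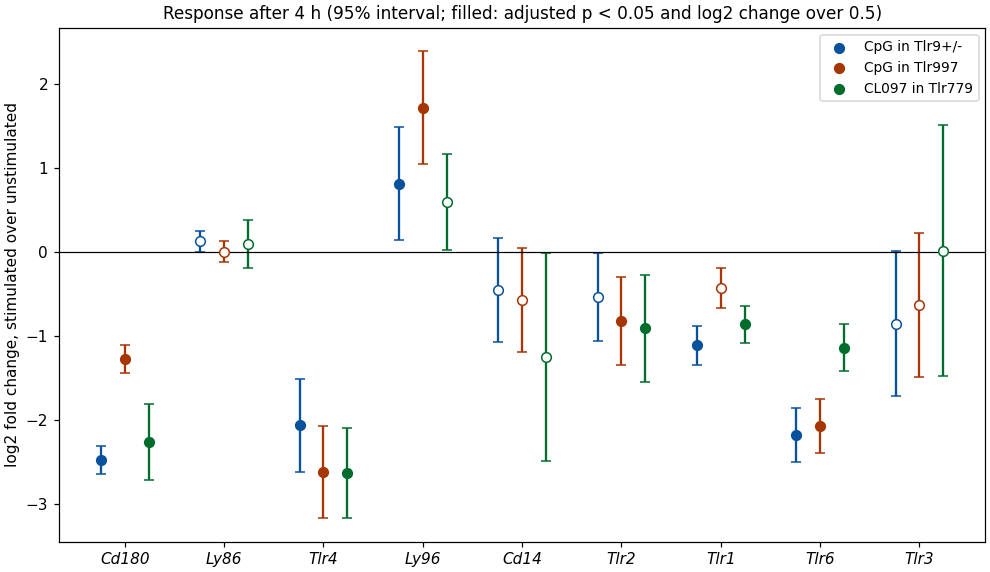
Log2 fold change of each gene with stimulation (y axis) in Tlr9+/-, Tlr997 and Tlr779 cells, with the 95% interval, from 3 libraries a group. Filled points passed both thresholds: Cd180, Tlr4 and Tlr6 are filled and below 0 in all 3 comparisons, and Ly86 lies within 0.13 of 0 in each.

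Cd180, which encodes RP105, was the gene of the 9 with the smallest p in the comparison of Tlr997 with Tlr9+/- cells under CpG. It was at 7.220, 7.202 and 7.258 log2 CPM in the unstimulated Tlr9+/- libraries and at 4.748, 4.760 and 4.746 with CpG. In the Tlr997 libraries it was at 7.334, 7.103 and 7.033 without CpG and at 6.004, 5.869 and 5.787 with it. All stimulated libraries lay below all unstimulated ones, and every Tlr997 library with CpG lay above every Tlr9+/- library with CpG. The change with CpG was -2.48 (SE 0.08), or 5.56-fold lower, in Tlr9+/- cells (adjusted p = 1.35e-11) and -1.27 (SE 0.08), or 2.41-fold lower, in Tlr997 cells (adjusted p = 7.09e-09). Cd180 stood at rank 139 of 11494 genes by p in the first of these and at rank 1103 in the second.

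The difference between the CpG responses of Cd180 was 1.21 log2 (SE 0.11, 95% interval 0.97 to 1.45, adjusted p = 0.000154), which placed it at rank 6 by p. Of all tested genes, 0.687% were called with a higher response in Tlr997. With CpG present, Cd180 was 1.14 log2 (SE 0.08) higher in Tlr997 than in Tlr9+/- cells (adjusted p = 6.12e-06, rank 5 by p), a direction in which 1.25% of genes were called. Without CpG the difference was -0.07 (95% interval -0.24 to 0.10, adjusted p = 0.771). The calls with stimulation held in every alternative run, and the difference between responses stayed within 1.14 to 1.29.

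Most B cell and marginal zone B cell markers also fell with CpG. Of all tested genes, 28.2% were called lower and 29.7% higher in Tlr9+/- cells, and 26.0% lower and 29.6% higher in Tlr997 cells. Of 9 B cell markers, 7 fell and Pax5 rose in Tlr9+/- cells, and 5 fell and Fcer2a rose (0.59 log2) in Tlr997 cells. Of 5 marginal zone markers, 4 fell with CpG in each genotype, the exception being Cd9, and their summed level was 193.6 to 214.3 CPM in Tlr9+/- and 204.2 to 258.8 CPM in Tlr997 libraries with CpG. With CpG, 1.25% of all tested genes were called higher in Tlr997 than in Tlr9+/- cells and 1.47% lower. In that comparison 3 of 9 B cell markers and 3 of 5 marginal zone markers were higher, and none was lower. Their part in the Cd180 result was not tested. Cd180 lies at chr13:102693547-102706631 on the plus strand and shares 182 of its 4509 exon bases with Mast4 on the opposite strand. The library kit kept strand, but the strand setting of the counting is not given in the sources used here. Mast4 lay between 5.72 and 5.995 log2 CPM in the unstimulated libraries. With CpG it lay between 4.82 and 5.15 in Tlr9+/- libraries. In Tlr997 libraries with CpG it was lower, between 4.62 and 4.72, whereas Cd180 was higher there. With CL097 it lay between 5.06 and 5.15. The part of Mast4 in the Cd180 values was not tested.

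In the Tlr779 libraries Cd180 was at 7.28, 7.33 and 7.42 log2 CPM without CL097 and at 4.65, 5.06 and 5.54 with it. The groups were far apart, and the stimulated libraries spread more than those given CpG. The change was -2.26 (SE 0.19), or 4.78-fold lower (adjusted p = 3.41e-05). In the order of the 6 groups, Tlr779 without CL097 was highest and Tlr9+/- with CpG lowest, and the ranges of Tlr779 with CL097 and Tlr9+/- with CpG overlapped.

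Ly86 encodes MD1, which RP105 needs to reach the cell surface. It did not pass the test in any comparison. Its lowest, median and highest values were 7.53, 7.55 and 7.72 log2 CPM in unstimulated Tlr9+/- cells and 7.66, 7.76 and 7.78 with CpG, and these groups overlapped. The changes were 0.13 (95% interval 0.01 to 0.26, adjusted p = 0.0588) in Tlr9+/-, 0.004 (-0.12 to 0.13) in Tlr997 and 0.10 (-0.19 to 0.38) in Tlr779 cells. Within a library, Cd180 was 0.38 ± 0.13 (SD, n = 3) log2 below Ly86 in unstimulated Tlr9+/- cells. With CpG the gap was 2.98 ± 0.06 in Tlr9+/- and 1.86 ± 0.09 in Tlr997 cells, and with CL097 it was 2.71 ± 0.33 in Tlr779 cells. In CPM, the mRNAs of receptor and partner were thus near each other without stimulation and several-fold apart with it. Per kilobase of exon, Ly86 (53.6 CPM per kb) lay above Cd180 (33.2) in unstimulated Tlr9+/- cells, without overlap.

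Tlr4, the LPS receptor, fell in all 3 comparisons. It was at 4.46, 4.31 and 4.25 log2 CPM in Tlr9+/- cells and at 2.36, 2.54 and 1.94 with CpG. In Tlr997 cells it was at 4.64, 4.53 and 4.26, and with CpG at 1.31, 2.50 and 1.78. In Tlr779 cells it was at 4.89, 4.58 and 4.52, and with CL097 at 2.07, 1.57 and 2.44. No stimulated library reached the lowest unstimulated one, and the 3 stimulated groups overlapped each other. The falls were -2.06 (SE 0.25, adjusted p = 6.43e-06), -2.62 (SE 0.25, adjusted p = 6.66e-07) and -2.63 (SE 0.23, adjusted p = 3.75e-05), or 4.18-, 6.14- and 6.19-fold. In the CL097 response Tlr4 stood at rank 70 of 11082 tested genes by size of fall. The difference between the CpG responses was -0.56 (95% interval -1.33 to 0.22, adjusted p = 0.482).

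Ly96, which encodes the LPS-binding partner MD2, moved opposite to Tlr4. It had the lowest CPM of the 9 genes in each unstimulated group, and was at 1.59, 1.25 and 1.05 log2 CPM in Tlr9+/- cells and at 2.11, 2.01 and 2.22 with CpG. In Tlr997 cells it was at 0.52, 1.56 and 1.72 without CpG and at 2.91, 3.40 and 2.64 with it. In Tlr779 cells it was at 1.39, 1.11 and 1.53, and with CL097 at 2.02, 2.19 and 1.60. Stimulated and unstimulated libraries did not overlap in any genotype. The rise was 1.72 (SE 0.31), or 3.29-fold, in Tlr997 cells (adjusted p = 0.000234) and 0.82 (SE 0.31), or 1.76-fold, in Tlr9+/- cells (adjusted p = 0.0307). In Tlr779 cells the change of 0.59 (SE 0.25) did not pass (adjusted p = 0.0680), and without CL097 replicate 3 it was 0.76 and passed (adjusted p = 0.0321).

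The Tlr9+/- call of Ly96 was lost without any filter on low values (adjusted p = 0.0592), and it was lost without unstimulated replicate 2 or 3 or without any of the 3 CpG replicates, where adjusted p reached at most 0.0988. The Tlr997 call held in every alternative. With CpG, Ly96 was 0.87 log2 (95% interval 0.20 to 1.54) higher in Tlr997 than in Tlr9+/- cells. This did not pass over all genes (adjusted p = 0.141), and it passed in 3 of 21 alternatives. These were without unstimulated Tlr997 replicate 1 (adjusted p = 0.0465), with array weights (0.0214) and with only the groups compared (0.0321). The difference between the responses was 0.91 (-0.05 to 1.86, adjusted p = 0.339) and passed in none of its 20 alternatives. Within a library, Tlr4 was 3.04 ± 0.16 (SD, n = 3) log2 above Ly96 in unstimulated Tlr9+/- cells and 0.17 ± 0.42 with CpG. In Tlr997 cells with CpG the order in CPM was turned, with Tlr4 at -1.12 ± 0.42 relative to Ly96. In Tlr779 cells with CL097 Tlr4 was at 0.095 ± 0.73 relative to Ly96. These gaps are in CPM and are not corrected for the longer exons of Tlr4 (5.56 kb against 1.02 kb). Per kilobase of exon, Ly96 was above Tlr4 in each stimulated group and below it in each unstimulated group. With stimulation the means were 4.25 against 0.89 CPM per kb in Tlr9+/-, 7.93 against 0.69 in Tlr997 and 3.80 against 0.76 in Tlr779 cells.

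Tlr6, the TLR2 partner for diacylated lipopeptides, fell in all 3 comparisons. It was at 4.79, 4.77 and 4.92 log2 CPM in Tlr9+/- cells and at 2.56, 2.45 and 2.95 with CpG. In Tlr997 cells it was at 5.15, 4.74 and 4.77, and with CpG at 2.74, 2.88 and 2.84. In Tlr779 cells it was at 5.01, 4.87 and 5.08, and with CL097 at 3.80, 3.73 and 4.03. The groups were separated in each genotype, and the libraries with CL097 lay between the unstimulated ones and those with CpG. The changes were -2.17 (SE 0.15, adjusted p = 1.63e-08), -2.07 (SE 0.15, adjusted p = 3.25e-08) and -1.13 (SE 0.12, adjusted p = 9.15e-05). The CpG responses of Tlr6 differed between the genotypes by 0.11 (95% interval -0.35 to 0.56, adjusted p = 0.854).

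Tlr1, the TLR2 partner for triacylated lipopeptides, lies beside Tlr6 on chromosome 5 and responded less. It was at 6.59, 6.54 and 6.72 log2 CPM in Tlr9+/- cells and at 5.46, 5.60 and 5.46 with CpG. In Tlr997 cells it was at 6.54, 6.15 and 6.62, and with CpG at 6.10, 5.88 and 6.05. In Tlr779 cells it was at 6.59, 6.63 and 6.86, and with CL097 at 5.73, 5.89 and 5.88. Stimulated libraries were lower in each genotype, without overlap. The change was -1.11 (SE 0.11, adjusted p = 6.38e-07) in Tlr9+/- and -0.86 (SE 0.09, adjusted p = 0.000116) in Tlr779 cells. In Tlr997 cells it was -0.43 (SE 0.11), which passed on p (adjusted p = 0.00323) but not on size; without unstimulated Tlr997 replicate 2 it was -0.57 and was called.

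Tlr1 was the other gene called in the comparison of CpG responses, with a difference of 0.68 log2 (SE 0.15, 95% interval 0.35 to 1.02, adjusted p = 0.0407). With CpG it was 0.50 (SE 0.11) higher in Tlr997 than in Tlr9+/- cells (adjusted p = 0.0160), just past the limit on size. Each Tlr997 library with CpG lay above each Tlr9+/- library with CpG. The call on the difference between responses was lost in 10 of 20 alternatives, in which adjusted p reached at most 0.107. These left out any Tlr9+/- library, or replicate 1 or 3 of Tlr997 with CpG, or used no filter or no variance trend. The call with CpG was lost in 7 of 21 alternatives, among them those without replicate 1 or 3 of either stimulated group, where the difference was 0.46 to 0.48.

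**Figure D3:**
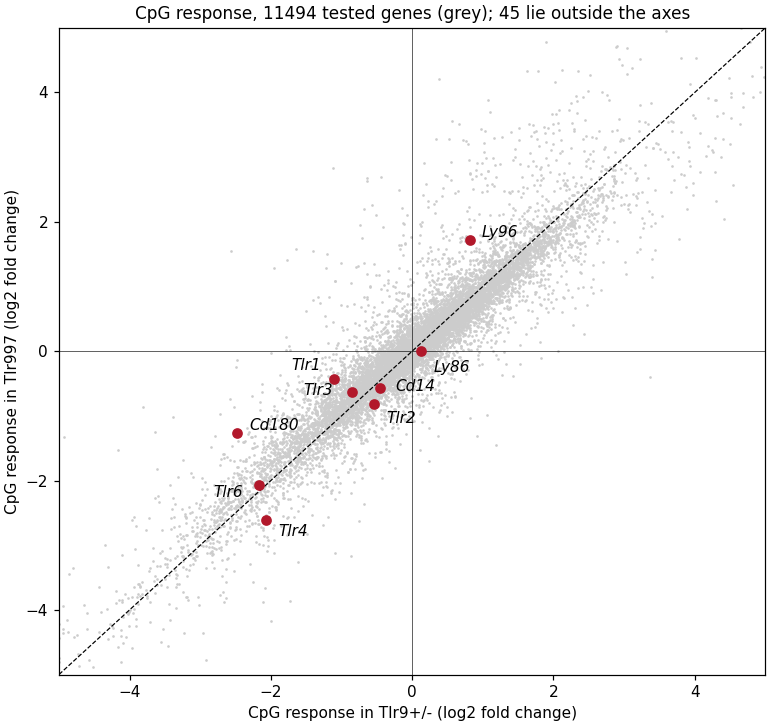
CpG response (log2 fold change) in Tlr9+/- cells (x axis) and Tlr997 cells (y axis) of the 11494 tested genes in grey and the 9 genes in red, with the line of equal response dashed and 45 genes outside the axes. Cd180 (-2.48 against -1.27) and Tlr1 (-1.11 against -0.43) lie above the line, and Tlr6 lies near it.

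Tlr2, the common subunit of the lipopeptide receptors, was lower with stimulation in each genotype. It was at 5.19, 5.44 and 4.92 log2 CPM in Tlr9+/- cells and at 4.71, 4.80 and 4.44 with CpG. In Tlr997 cells it was at 5.64, 4.72 and 4.84, and with CpG at 4.69, 4.18 and 3.86. In Tlr779 cells it was at 4.67, 4.70 and 5.37, and with CL097 at 3.99, 3.52 and 4.51. The groups did not overlap, although the gaps were small beside the spread. The change was -0.82 (SE 0.24, adjusted p = 0.00816) in Tlr997 and -0.91 (SE 0.27, adjusted p = 0.0207) in Tlr779 cells, and both passed. Without unstimulated Tlr997 replicate 1 the Tlr997 change was -0.54 and still passed. The Tlr779 call was lost without any filter on low values, without unstimulated replicate 3 and without CL097 replicate 1 or 2, with adjusted p of at most 0.0687. In Tlr9+/- cells the change of -0.53 (SE 0.24) did not pass (adjusted p = 0.0634), but it did in the paired fit, which treats same-numbered libraries as a block (adjusted p = 0.000584). It also passed without unstimulated Tlr9+/- replicate 3 (-0.67) or without replicate 1 of either Tlr997 group, which share the estimate of the spread.

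Cd14, which encodes the LPS co-receptor of monocytes and macrophages, did not pass in any comparison. Its lowest, median and highest values were 3.64, 4.39 and 4.63 log2 CPM in Tlr9+/- cells and 3.63, 3.74 and 3.95 with CpG. In Tlr997 cells they were 3.55, 3.80 and 4.21, and with CpG 2.75, 3.27 and 3.83. In Tlr779 cells they were 2.97, 3.67 and 4.75, and with CL097 1.59, 2.72 and 3.34. Stimulated and unstimulated libraries overlapped in each genotype. The changes were -0.45 (SE 0.29, adjusted p = 0.172), -0.57 (SE 0.29, adjusted p = 0.0903) and -1.25 (SE 0.53, adjusted p = 0.0734). In the paired fit the Tlr779 change of Cd14 passed (adjusted p = 0.000455), and it was lower with CL097 in 3 of 3 numbered pairs. Cd14 passed in Tlr9+/- cells without unstimulated replicate 3 (-0.74), in Tlr997 cells without CpG replicate 1 (-0.84), and in Tlr779 cells without unstimulated replicate 2 (-1.66) or CL097 replicate 3 (-1.64). The change shrank to -0.245 in Tlr9+/- cells without unstimulated replicate 2, to -0.30 in Tlr997 cells without CpG replicate 3 and to -0.77 in Tlr779 cells without unstimulated replicate 3 or CL097 replicate 2.

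Macrophage or monocyte markers varied between libraries alongside Tlr2 and Cd14. In 5 of 6 groups the library with the highest summed level of the 14 markers also had the highest Tlr2, and in 5 of 6 the highest Cd14. For the other genes this count ran from 1 (Ly96) to 4 (Cd180) of 6. The library with the lowest marker level matched in 5 of 6 groups for Cd14 and in 4 for Tlr2, Tlr3 and Tlr4. The marker level was 442.7 CPM in unstimulated Tlr997 replicate 1 against 277.9 and 177.0 in the others, and Tlr2 was highest in that library of all 18. It was 542.4 CPM in unstimulated Tlr779 replicate 3 against 296.7 and 247.0, and Cd14 was highest there of all 18. With stimulation the log2 of the summed marker level changed by -0.49 on average in Tlr9+/-, -0.55 in Tlr997 and -0.89 in Tlr779 cells, beside Tlr2 changes of -0.53, -0.82 and -0.91. Lyz2, which fell by 0.97, 1.08 and 1.65, weighs heavily in that sum, and the median change of the 14 markers was smaller, at -0.28, -0.28 and -0.22. Of the 14 markers, 1, 1 and 3 were called lower and none higher. Of all tested genes, 28.2%, 26.0% and 23.6% were called lower and 29.7%, 29.6% and 22.7% higher. The part of the markers in the Tlr2 and Cd14 results was not tested.

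**Figure D4:**
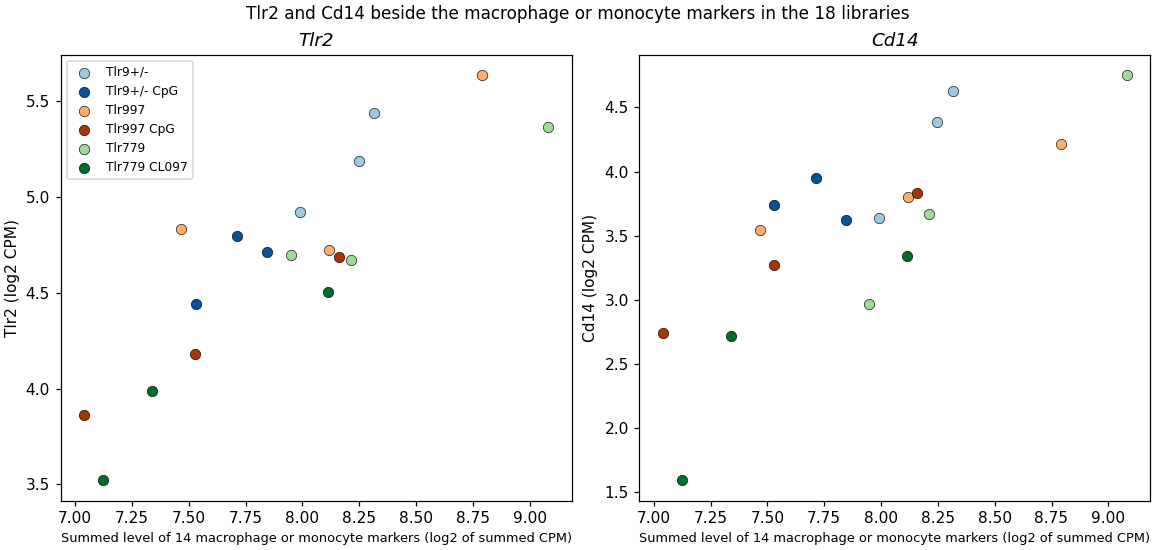
Level of Tlr2 (left) and Cd14 (right) in log2 CPM (y axes) against the log2 of the summed CPM of 14 macrophage or monocyte markers (x axes) in the 18 libraries, colored by group. The library with the most marker RNA, unstimulated Tlr779 replicate 3 at 9.08, has the highest Cd14 at 4.75.

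Tlr3, the endosomal receptor for double-stranded RNA, varied widely between libraries of the same group. Its lowest, median and highest values were 2.50, 3.73 and 3.75 log2 CPM in Tlr9+/- cells and 2.35, 2.43 and 2.65 with CpG. In Tlr997 cells they were 2.65, 4.01 and 4.07, and with CpG 2.63, 2.75 and 3.47. In Tlr779 cells they were 2.26, 2.36 and 3.31, and with CL097 1.06, 3.18 and 3.75. All 3 pairs of groups overlapped, and the neighbours in the order of the 6 groups overlapped too. The changes were -0.85 (SE 0.40, adjusted p = 0.0698), -0.63 (SE 0.40, adjusted p = 0.174) and 0.02 (SE 0.65, adjusted p = 0.982). The Tlr9+/- change passed in the paired fit (adjusted p = 0.0317), and without unstimulated replicate 3 it was -1.26 and passed (adjusted p = 0.00992). It also passed without unstimulated Tlr997 replicate 1 (adjusted p = 0.0247), and without that library the Tlr997 change was -1.09 and passed (adjusted p = 0.0131). Without unstimulated Tlr997 replicate 3 that change was -0.38, and the Tlr779 change ran from -0.52 without CL097 replicate 3 to 0.82 without CL097 replicate 2. Tlr3 shares 381 of 5207 exon bases with Gm45542, an antisense gene of the annotation.

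Without stimulation, none of the 9 genes was called different between Tlr997 and Tlr9+/- cells. The 95% intervals of Tlr2, Tlr3, Tlr4, Ly96 and Cd14 reached past 0.5 in size, with that of Tlr3 running from -0.61 to 1.11. Differences ran from -0.37 for Cd14 to 0.25 for Tlr3, and 0.0174% of the 11494 tested genes (2 genes) were called in either direction, with 1237 at an unadjusted p under 0.05. Among the 9, Ly86 had the smallest unadjusted p, 0.0301, with a difference of 0.14 (95% interval 0.02 to 0.27, adjusted p = 0.421).

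The list of other genes of the pathway held other TLRs and the adaptors, kinases, chaperones and inhibitors that TLRs share, 27 in all, of which 24 were tested. With CpG, 11 of the 24 fell and 2 rose in Tlr9+/- cells (all tested genes: 28.2% lower, 29.7% higher), and 8 fell and 1 rose in Tlr997 cells (26.0% lower, 29.6% higher). With CL097, 8 fell and 2 rose in Tlr779 cells (23.6% lower, 22.7% higher). The median log2 changes were -0.39, -0.23 and -0.18, beside 0.04, 0.07 and -0.02 over all tested genes. For the difference between CpG responses, 1 was called higher and 1 lower. Tlr5, Tlr11 and Lbp did not pass the filter on low values.

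Among other receptors of the family, Tlr12, which senses parasite profilin, fell by 3.10 log2 (SE 0.58) and by 2.78 (SE 0.58) with CpG and by 1.68 (SE 0.25) with CL097. Tlr13, a sensor of bacterial ribosomal RNA, fell by 1.87 (SE 0.44) with CL097. Of the 10 adaptors and kinases, 4, 2 and 2 fell in the 3 comparisons, beside 28.2%, 26.0% and 23.6% of all tested genes, and 1, 0 and 0 rose. Irak3, an inhibitor of IRAK signaling, fell by 1.92 (SE 0.14), 1.84 (SE 0.14) and 1.73 (SE 0.11). Irak2, a kinase that prolongs TLR signals, fell by 1.37, 1.20 and 0.70. Myd88, the adaptor of most TLRs, was called higher with CpG in Tlr9+/- cells (0.55, SE 0.08), where Ticam2, the adaptor that links TLR4 to TRIF, fell by 0.94 and Irak1 by 0.53.

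Of 6 tested genes for receptor chaperones and LPS handling, 4, 3 and 3 fell, beside the same shares of all genes, and none rose. Hsp90b1, which encodes gp96, fell by 0.96 (SE 0.08), 0.82 (SE 0.08) and 0.62 (SE 0.07). Cnpy4, whose product is known to affect TLR1 and TLR4 at the cell surface, fell by 1.61 (SE 0.18), 1.20 (SE 0.18) and 1.12 (SE 0.13). Unc93b1, the carrier of endosomal TLRs, fell with CpG by 0.85 in Tlr9+/- and 0.75 in Tlr997 cells. Cd36, a co-receptor for TLR2 with TLR6, fell by 0.98 (SE 0.15) with CpG in Tlr9+/- cells and by 1.16 (SE 0.15) with CL097. Its CpG response was higher in Tlr997 than in Tlr9+/- cells by 1.00 (SE 0.22, adjusted p = 0.0348).

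Of 5 genes that damp TLR signals, 2, 2 and 1 fell (28.2%, 26.0% and 23.6% of all tested genes) and 1, 1 and 2 rose (29.7%, 29.6% and 22.7%), counts too small to set apart from those shares. Sigirr, an inhibitory receptor of the family, fell by 3.20 (SE 0.19), 2.66 (SE 0.19) and 1.58 (SE 0.16). Tnfaip3, which encodes the ubiquitin-editing enzyme A20, rose by 2.32 (SE 0.06), 1.71 (SE 0.06) and 1.58 (SE 0.08), and its CpG response was lower in Tlr997 cells by 0.62 (SE 0.08, adjusted p = 0.00224). Rnf216, a ubiquitin ligase for TLRs, fell with CpG by 0.67 and 0.51. Il1rl1, the IL-33 receptor, rose by 1.69 (SE 0.43) with CL097.

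Across the 18 libraries, 8 of the 9 genes had a mean above 2 log2 CPM and were compared with the other genes above it. The likeness is Pearson's r over libraries that share their stimulus, and is given as a description. Most like Cd180 were Ncf4 (0.98), Serp1 (0.98) and Keap1 (0.98), and most like Tlr1 were Serp1 (0.97), Arsk (0.96) and Fam173a (0.96). Most like Tlr4 were Tubb2a (0.99), Ptprj (0.98) and Sept9 (0.98), and most like Tlr6 were Fam65a, Rhobtb2 and Fam134b (0.99 each). Tlr2 was most like Slc40a1 (0.94), Plin2 (0.93) and Tmem65 (0.93), and Cd14 was most like Srxn1 (0.94), Slc7a8 (0.93) and Emp1 (0.92). Slc40a1 encodes the iron exporter of macrophages and other cells. Tlr3 was most like Zc3hav1 (0.89), Pydc3 (0.87) and Slfn1 (0.85), the first of which encodes the interferon-induced antiviral protein ZAP. Ly86 had no close match, with Tnfsf10 (0.76), Tor3a (0.71) and Tor1aip1 (0.69) nearest. Among the 9 genes themselves, r was highest between Cd180 and Tlr1 (0.95) and between Tlr2 and Cd14 (0.91).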

How the data were processed

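RNA-seq libraries (TruSeq Stranded mRNA) were made from bead-purified B cells in 6 groups of 3. Per the labels and methods, reads were trimmed with Trim Galore 0.6.5, aligned to mm10 with STAR 2.6.1a and counted with featureCounts (Subread 2.0.1). The deposited values are log2 CPM that the authors obtained by quantile normalisation and voom. Of 6614 genes under -4 in the 12 libraries of the Tlr7-/- arm, 6306 carried a single value per replicate number. For 822 of these it differed between numbers, as if an offset per number had been removed. The main fit does not allow for such a step, so its p-values may be too small if the step was taken. Quantile normalisation fixes the distribution of each library, so changes are relative. No counts were recovered, and the depth of each library is unknown.

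Genes with at least 3 fitted libraries over 0 log2 CPM were tested with limma 3.58.1 (R 4.3.3, eBayes with trend) on the log2 values, with a mean per group. The Tlr7-/- arm (12 libraries, 11494 genes) and the Tlr779 libraries (6, 11082 genes) were fitted apart. Calls needed a Benjamini-Hochberg adjusted p under 0.05 over all tested genes and an absolute log2 change over 0.5. The fit was tested on simulated data. Replicates are the 3 numbered libraries of a group. The treatment text names 3 mice per genotype but does not tie numbers to mice, so p-values may measure partly technical spread. Deviations from group means correlated between same-numbered libraries by 0.51, 0.29 and 0.51 in Tlr9+/- and 0.20, 0.42 and 0.28 in Tlr779 cells over 11494 genes, so numbers were taken to pair these samples. Alternatives covered filters, scaling, variance model, weights, block, thresholds, libraries in the model and each library left out.

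The members and lists were chosen with earlier results of these data known. All 9 members are named, pathway genes are named where called, and the 3 genes most like each member with a mean over 2 log2 CPM are given. Exon lengths and overlaps came from GENCODE annotation of GRCm38, and promoters from RefSeq GRCm38.p6. No promoter of Tlr4, Ly96 or Cd14 is shown.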

Additional observations from a re-analysis of the deposited data

Results flagged for a closer look

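The CpG responses of Cd180 and Tlr1 differed between genotypes by the test of the difference itself (limma). For Cd180 the Tlr997 response minus the Tlr9+/- response was 1.21 log2 (adjusted p = 0.000154). CpG lowered Cd180 in 3 of 3 numbered pairs of Tlr9+/- cells, by 2.44 to 2.51 log2. The Tlr997 libraries were not taken as pairs, and there each library with CpG lay below each unstimulated one. For Tlr1 the difference was 0.68 log2 (adjusted p = 0.0407). Its level was lower with CpG in 3 of 3 pairs of Tlr9+/- cells, and in Tlr997 cells the groups with and without CpG did not overlap. Groups of 3 libraries are too small for a check of single outlying libraries.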

How the results depend on the processing

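Of 19 member results called, 15 held under all alternatives that kept the thresholds, and of 35 not called, 26 were never called. The calls lost in some such alternative were Ly96 with CpG in Tlr9+/- cells, Tlr2 with CL097, and Tlr1 in the genotype comparison with CpG and in the difference between responses. Where a log2 change over 1 was needed, Tlr2 with CpG in Tlr997 cells and Tlr1 with CL097 were lost as well. No called result changed sign, and 10 uncalled results did so under some alternative. The number of members called moved from 5 to 8 with array weights in Tlr9+/- cells and from 5 to 3 with CL097 where a log2 change over 1 was needed. With CpG, the number of members called between Tlr997 and Tlr9+/- fell from 2 to 1 with median centring, without a variance trend and with a log2 change over 1, and ran from 1 to 3 with a library left out. For the difference between CpG responses it fell from 2 to 1 without a filter, without a variance trend and with a log2 change over 1, and ran from 1 to 2 with a library left out. Where these counts were 1, the gene was Cd180. The cause was not tested. Fitting only the groups compared could not be run as an alternative for the difference between responses, which uses all 4 groups.

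With the replicate number as a block, the number of members called was 7 in Tlr9+/- (Tlr2 and Tlr3 added) and 6 in Tlr779 cells (Cd14 added). In Tlr997 cells the same-numbered libraries correlated by 0.37, 0.083 and 0.025, so the samples share only a number there, and the block added Cd14 (-0.57, adjusted p = 0.00971). The block changed no other member call. Over all genes it moved the count of different CpG responses from 177 to 328. Depth per library is unknown, so counting error of the low genes Ly96 and Tlr3 could not be given.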
